A study of Mus musculus with 6 samples.

Results

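Setd2 knockout (KO) macrophages were set against wild type (WT) macrophages 12 h after lipopolysaccharide was added (LPS, from the outer wall of bacteria). The comparison used 2 of the 6 RNA sequencing libraries of the study, 1 for each genotype, and took the difference of log2(FPKM + 1), KO minus WT. FPKM is fragments per kilobase of transcript, scaled to a library's mapped total, so levels are per length. Genes entered with 1 FPKM or more in either library, which 10641 of 17904 did. A gene was called when its difference reached a size of 1, which is 2-fold on this scale. With 1 library a side there is no replicate error, no test and no p-value, and every call is a size only. The KO and WT groups shared all else that the labels give: bone marrow of C57BL/6 mice aged 8 weeks was grown for 5 days with the growth factor M-CSF, and LPS was given at 100 ng/ml. The other libraries were KO and WT cells at 0 h and at 24 h with LPS. The labels describe neither the Setd2 allele nor a Cre driver, and whether any of the libraries came from the same mouse, dish or run is not stated.

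SETD2 is the enzyme that places the third methyl group on lysine 36 of histone H3, a mark laid down over the bodies of transcribed genes as RNA polymerase II passes. Macrophages sense LPS through the receptor TLR4, which drives the transcription factors NF-kB, AP-1 and IRF3. The first wave of cytokines and chemokines includes interferon beta, which acts back on the cells through its receptor and turns on a second wave of antiviral genes.

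The library labelled KO could not be checked by its target. Setd2 (gene ID 235626, GRCm38 chromosome 9, 110532500 to 110618633) stood at 9.16 FPKM in the library labelled KO and 8.68 FPKM in WT at 12 h, a difference of 0.07. At 0 h it stood at 9.96 FPKM in the library labelled KO and 7.83 FPKM in WT (0.31), and at 24 h at 5.11 FPKM in the library labelled KO and 7.51 FPKM in WT (-0.48), so the libraries labelled KO were not lower at every time. A whole-gene value still counts reads of any exons that a partial deletion leaves. Each direction below therefore rests on the labels. Estimated depth was 21620000 reads in the library labelled KO and 21780000 in WT, with 10345 genes at 1 FPKM or more in the library labelled KO and 10353 in WT. All 10 macrophage markers passed in both libraries. Adgre1, the F4/80 antigen, stood at 466.9 FPKM in the library labelled KO and 669 FPKM in WT, and Csf1r, the M-CSF receptor, at 391.6 FPKM in the KO-labelled library and 572.9 FPKM in WT. Lyz2 is the exception described below. Markers of B, NK, mast and erythroid cells did not reach 1 FPKM. The T cell list had 1 member above it, Lck, at 1.66 FPKM in the library labelled KO and 0.82 FPKM in WT.

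The libraries were close to each other at 12 h. The median difference was -0.06, the central 50% of genes lay between -0.23 and 0.12, and 9358 genes (87.9%) lay within 0.5 of 0. Of 10641 genes, 236 were called (2.22%). The library labelled KO was higher for 152 (1.43%) and lower for 84 (0.789%). Across all genes the balance ran the other way, with 4211 (39.6%) above 0 and 6405 (60.2%) below. Called genes at high levels were mostly higher. With 100 FPKM or more in either library there were 19 higher and 7 lower. Predicted genes, clones and small RNA genes made up 58 of the higher and 48 of the lower calls, and they are counted but not named. At the edge of the rule, Scimp was just inside at 22.5 FPKM in the library labelled KO and 10.8 FPKM in WT (1.0), and Gnb4 just outside at 9.31 FPKM in the KO-labelled library and 4.18 FPKM in WT (0.99). On the lower side, Camk1d was just inside at 2.5 FPKM in the KO-labelled library and 6.0 FPKM in WT (-1.0), and Prkcb just outside at 7.57 FPKM in the KO-labelled library and 16.0 FPKM in WT (-0.99). Many calls rest on few reads. By estimated reads, 51 higher and 45 lower genes had fewer than 20 in both libraries. The 95% counting interval of the ratio was clear of 1 for 99 of the 148 higher genes with a known length and 40 of the 83 lower ones. These intervals assume reads of 50 nt and cover counting error only.

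**Figure D1:**
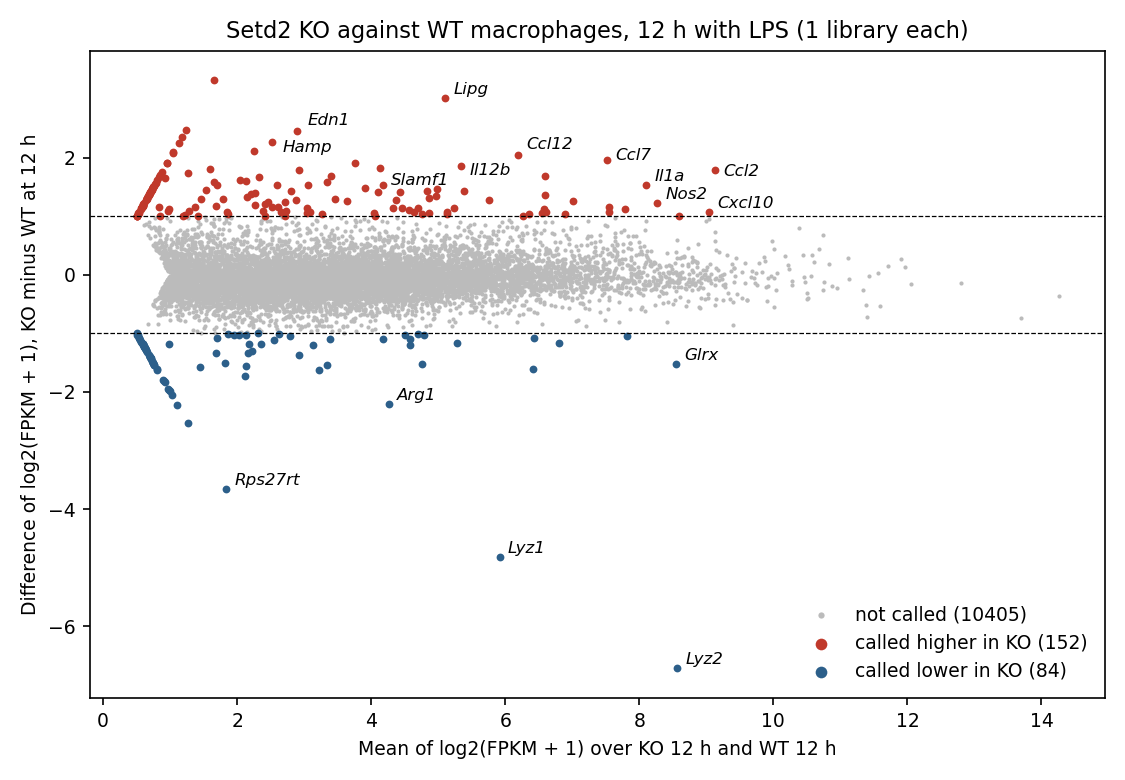
Difference of log2(FPKM + 1), KO minus WT at 12 h (vertical axis), against the mean level in the pair (horizontal axis), 1 point a gene of 10641. Red points are the 152 genes called higher in the library labelled KO and blue points the 84 called lower, with dashed lines at 1 and -1. Chemokine and cytokine genes stand above the upper line at high levels, and Lyz2 and Lyz1 lie far below the rest.

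Chemokines, the secreted proteins that steer leukocytes, held 7 of the calls. Of 24 genes on 3 lists, 21 passed, 7 were higher and 0 were lower, against 1.43% higher among all genes. Their median was 0.73, against -0.06 over all genes. All 4 genes of the cluster on chromosome 11 whose products draw monocytes were called. Ccl2, whose product is the main ligand of the monocyte receptor CCR2 (gene ID 20296, GRCm38 chromosome 11, 82035577 to 82037452), stood at 1041 FPKM in the library labelled KO and 300.2 FPKM in WT, a difference of 1.79. Its neighbour Ccl7 stood at 360.3 FPKM in the KO-labelled library and 91.8 FPKM in WT (1.96). Ccl12 followed with 148 FPKM in the library labelled KO and 35.2 FPKM in WT (2.04), the largest difference of the family. Ccl8 was at 16.5 FPKM in the KO-labelled library and 4.86 FPKM in WT (1.58). The 4 genes differed widely in level and little in the size of the difference. Expression of Ccr2, the receptor gene named above for the Ccl2 product, differed little. It stood at 9.29 FPKM in the library labelled KO and 9.43 FPKM in WT (-0.02).

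The other called chemokines attract lymphocytes. Cxcl10 and Cxcl11 encode interferon-induced ligands of CXCR3, a receptor of activated T cells. Cxcl10 (gene ID 15945, GRCm38 chromosome 5, 92346638 to 92348889) stood at 760.3 FPKM in the library labelled KO and 359.6 FPKM in WT (1.08), and Cxcl11 at 25.2 FPKM in the KO-labelled library and 5.99 FPKM in WT (1.91). The third member of that trio, Cxcl9, was not called, with 19.3 FPKM in the KO-labelled library and 11.9 FPKM in WT (0.65). Ccl17, a ligand of CCR4, was at 13.1 FPKM in the library labelled KO and 3.05 FPKM in WT (1.798), while Ccl22, which binds the same receptor, was at 279 FPKM in the KO-labelled library and 190.1 FPKM in WT (0.55). Ccl3, Ccl4 and Ccl6 came close to the rule with differences of 0.98, 0.79 and 0.74. The most abundant members of the same list lay slightly below 0, with Ccl5 at 4010 FPKM in the KO-labelled library and 4462 FPKM in WT (-0.15) and Ccl9 at 512 FPKM in the KO-labelled library and 547 FPKM in WT (-0.10); both were picked after their values were seen. Neutrophil attractants were uncalled, with Cxcl3 at 273 FPKM in the KO-labelled library and 164 FPKM in WT (0.73) and Cxcl1 at 24.0 FPKM in the KO-labelled library and 14.7 FPKM in WT (0.67). All 10 CXC and CX3C genes that passed lay above 0, with a median of 0.51. Of 14 chemoattractant receptor genes that passed, 0 were called, and their median was -0.21. Among them Cx3cr1, the fractalkine receptor, stood at 5.18 FPKM in the library labelled KO and 11 FPKM in WT (-0.96), and C5ar1, the receptor for complement fragment C5a, at 68.9 FPKM in the KO-labelled library and 124 FPKM in WT (-0.84).

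Promoter sequences are shown for 4 of the genes called higher, because DNA motifs of the LPS response can be read in them. They were picked after matches had been seen: of 32 named higher genes with a window, 17 hold a match and 15, such as Il12b, Ptx3 and Ccl8, hold none. Each is the 250 bases before the start site in the RefSeq promoter table (GRCm38.p6), 5' to 3' on the strand of the gene. Capitals mark matches, on either strand, to an NF-kB motif (GGNNNTTCC), an interferon-stimulated response element (ISRE, GAAANNGAA) or an AP-1 motif (TGANTCA). The windows are chr5:92348890-92349139 (minus strand) for Cxcl10, chr5:30012864-30013113 (plus strand) for Il6, chr13:42301226-42301475 (plus strand) for Edn1 and chr7:30944030-30944279 (minus strand) for Hamp.
Cxcl10: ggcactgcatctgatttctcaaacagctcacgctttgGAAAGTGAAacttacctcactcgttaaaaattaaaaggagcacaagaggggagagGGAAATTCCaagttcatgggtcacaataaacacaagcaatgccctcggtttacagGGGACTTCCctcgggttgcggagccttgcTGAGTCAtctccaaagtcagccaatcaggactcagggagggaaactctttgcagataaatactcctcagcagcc
Il6: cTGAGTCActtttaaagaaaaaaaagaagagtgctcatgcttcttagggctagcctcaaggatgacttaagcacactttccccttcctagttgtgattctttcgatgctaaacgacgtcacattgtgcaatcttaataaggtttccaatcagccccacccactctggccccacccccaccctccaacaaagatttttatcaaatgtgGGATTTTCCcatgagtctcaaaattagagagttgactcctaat
Edn1: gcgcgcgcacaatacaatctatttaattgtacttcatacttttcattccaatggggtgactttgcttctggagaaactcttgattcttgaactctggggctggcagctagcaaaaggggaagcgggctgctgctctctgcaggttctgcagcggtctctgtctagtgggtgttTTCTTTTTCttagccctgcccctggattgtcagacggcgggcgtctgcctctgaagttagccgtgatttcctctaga
Hamp: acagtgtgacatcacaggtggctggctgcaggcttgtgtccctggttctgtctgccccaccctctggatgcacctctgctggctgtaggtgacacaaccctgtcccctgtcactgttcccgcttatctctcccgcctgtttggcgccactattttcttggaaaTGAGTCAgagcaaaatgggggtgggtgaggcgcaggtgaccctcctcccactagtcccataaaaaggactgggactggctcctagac
Cxcl10 holds all 3 kinds, with an ISRE match at -213 to -205, NF-kB matches at -158 to -150 and -103 to -95, and an AP-1 match at -74 to -68, counted from the start site. Il6, the gene of interleukin 6, holds an NF-kB match at -43 to -35 and an AP-1 match at -249 to -243. Edn1 holds an ISRE match on the opposite strand at -77 to -69, and Hamp an AP-1 match at -87 to -81. Matches of different motifs do not overlap in these windows. Of the 152 genes called higher, 70 had a window, against 8504 of the 10641 genes that passed. Ccl2, Ccl7, Cxcl11 and Nos2 were among those without one. A gene counted as holding a motif if any of its windows did. An ISRE match stood in 14 of these 70, against 7.9% of the 8504 genes that passed with a window and 8.2% of all 27025 genes in the table. AP-1 matches stood in 16 of the 70 (22.9%), against 5.5% and 7.8%. The short NF-kB motif is common, and stood in 14 of the 70, against 1871 of the 8504 and 17.6% of all. Of the 84 genes called lower, 32 had a window. Among these 32, 3 held the ISRE match, 4 the AP-1 match and 14 (43.8%) the NF-kB match. The lengths of the NF-kB and ISRE motifs were set after matches to forms longer by 1 base had been seen, and the shares depend on them. With a G required before the NF-kB motif, matches stood in 5 of the 70 higher genes (7.1%) and 4 of the 32 lower ones (12.5%). Among genes that passed it was 6.3%. The higher genes' share was above that of the genes that passed with the longer form and below it with the shorter one. With an A required after the ISRE motif, matches stood in 11 of the 70 (15.7%) and 2 of the 32 (6.2%), against 3.7%. A match describes the letters of a window and is no evidence of binding.

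Among inflammatory cytokines 18 of 21 genes passed, the rule called 4 higher (22.2%, against 1.43% of all genes) and 0 lower (against 0.789%), and the median was 0.60. Il12b, whose product is the p40 subunit shared by interleukins 12 and 23 (gene ID 16160, GRCm38 chromosome 11, 44400063 to 44414677), stood at 76.3 FPKM in the library labelled KO and 20.4 FPKM in WT (1.85). Il1a, the gene of interleukin 1 alpha, an alarm signal released by damaged cells, stood at 467 FPKM in the KO-labelled library and 160.5 FPKM in WT (1.54). Il6, which drives the acute phase response, stood at 27.1 FPKM in the KO-labelled library and 9.55 FPKM in WT (1.41). For each of these 3 genes the library labelled KO held the higher level by more than the 2-fold rule. Csf1, which encodes the M-CSF that the cells were grown in, was at 18.3 FPKM in the library labelled KO and 7.04 FPKM in WT (1.26). The uncalled members nearest to the rule were Il33 at 1.71 FPKM in the KO-labelled library and 0.39 FPKM in WT (0.96), and oncostatin M, Osm, at 14.8 FPKM in the KO-labelled library and 8.46 FPKM in WT (0.74). Il10, which dampens macrophage activation, was at 8.35 FPKM in the library labelled KO and 4.59 FPKM in WT (0.74). Tnf (184 FPKM in the KO-labelled library and 118 FPKM in WT, 0.63) and Il1b (1259 FPKM in the KO-labelled library and 1123 FPKM in WT, 0.17), picked after their values were seen, were not called.

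Genes for LPS sensing, its relay and feedback, cytokine receptors and the TNF family were called about as often as genes at large. Over 6 lists, 3 of the 130 genes that passed were called (2.3%), against 2.22% of all genes. All 3 were higher (2.3%, against 1.43% of all genes). Of the 130, 85 lay above 0 (65.4%, against 39.6% of all genes), with a median of 0.15, against -0.06 over all genes. Of 21 genes for Toll-like receptors and LPS sensing that passed, 1 was called (4.8%, against 2.22% of all genes). This was Tlr3, a receptor for double-stranded RNA, at 22.8 FPKM in the library labelled KO and 10.5 FPKM in WT (1.05). None of the 15 NF-kB and IkB genes was called, and 13 of them lay above 0, with a median of 0.19. Nfkbib, an inhibitor of the pathway, had the largest difference, with 91.9 FPKM in the KO-labelled library and 60.5 FPKM in WT (0.59). The 27 AP-1 and immediate early genes (median 0.08) and the 25 cytokine receptor genes (median 0.04) had 0 calls. Feedback inhibitors had a median of 0.39 over 24 genes with 1 call (4.2%, against 2.22% of all genes). That was Cish, a suppressor of cytokine receptor signalling, at 4.44 FPKM in the library labelled KO and 1.22 FPKM in WT (1.29). Il1rn, the natural antagonist of interleukin 1, stood at 2158 FPKM in the KO-labelled library and 1351 FPKM in WT (0.68), Tnfaip3, the deubiquitinase A20, at 105 FPKM in the KO-labelled library and 58.5 FPKM in WT (0.84), and Dusp6, a phosphatase of ERK kinases, at 7.80 FPKM in the KO-labelled library and 15.4 FPKM in WT (-0.90). In the TNF family and its receptors 1 of 18 was called (5.6%, against 2.22% of all genes). Cd40, through which T cells stimulate macrophages, stood at 199.9 FPKM in the library labelled KO and 82.4 FPKM in WT (1.27).

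**Figure D2:**
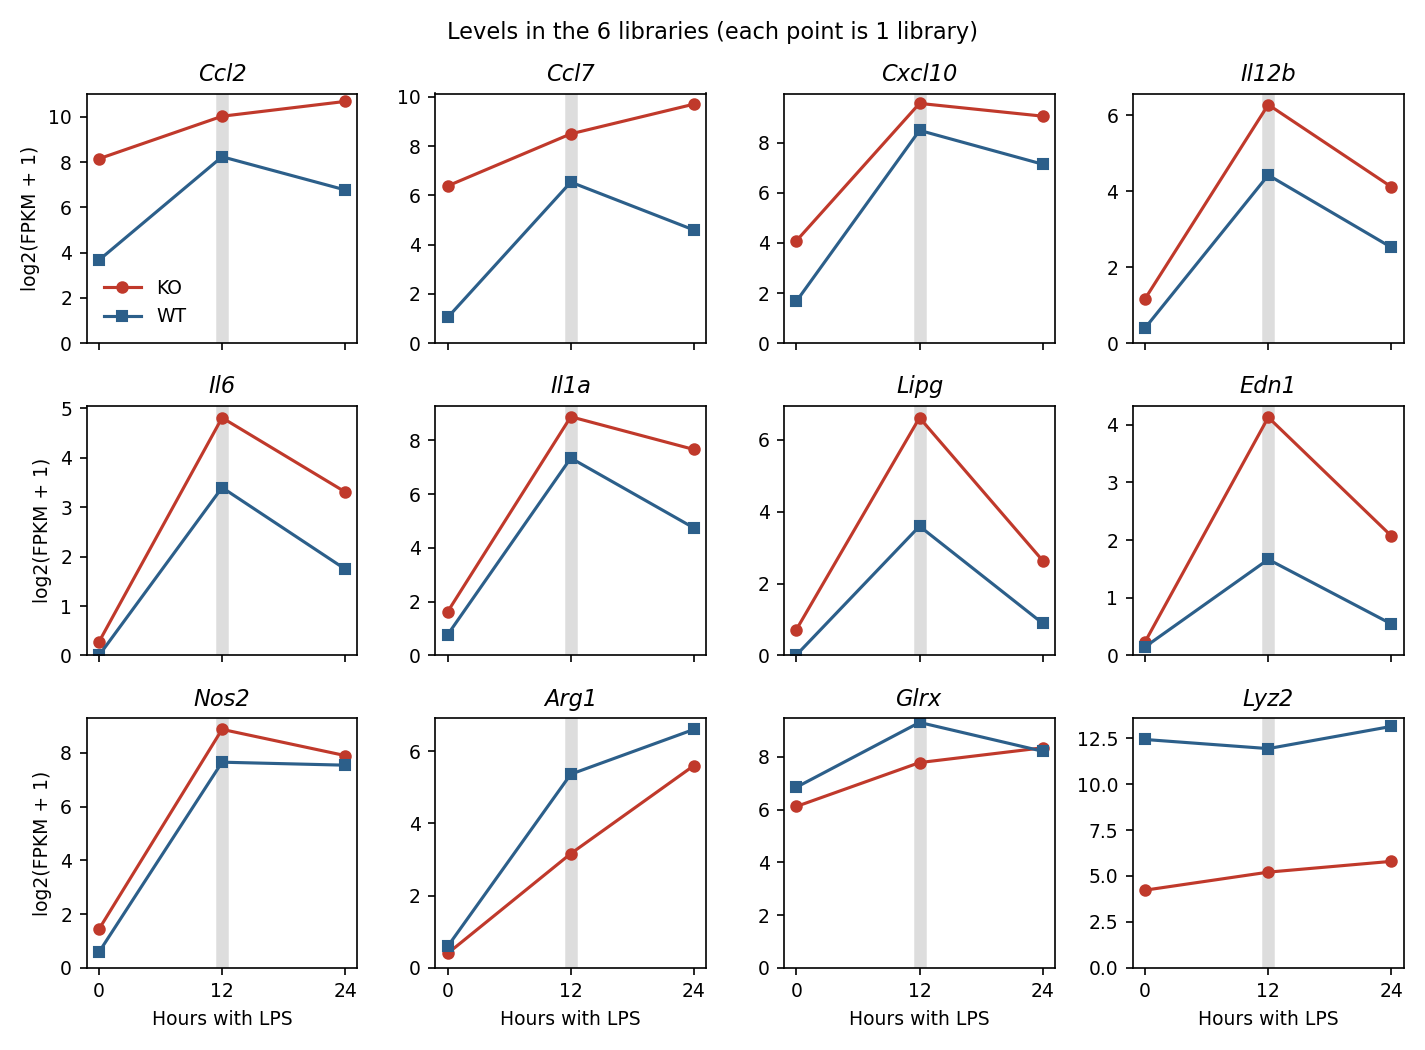
Level of 12 genes as log2(FPKM + 1) (vertical axes, each starting at 0) against hours with LPS, with the KO library red and the WT library blue, 1 library a point. The grey band marks 12 h, where the first 9 genes are higher in the library labelled KO and Arg1, Glrx and Lyz2 lower.

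Interferon-stimulated genes stood mostly above 0, and most of them fell short of the rule. Over 3 lists, 84 genes passed and 77 lay above 0 (91.7%, against 39.6% of all genes), with a median of 0.35. The rule called 9 of the 84 higher (10.7%, against 1.43% of all genes) and 0 lower. The calls fell mainly on GTPases that attack the vacuoles of intracellular microbes, of which 7 of 19 were called (36.8%), all 19 lay above 0 and the median was 0.66. Gbp3 (gene ID 55932, GRCm38 chromosome 3, 142560016 to 142573213) stood at 269.8 FPKM in the library labelled KO and 127 FPKM in WT (1.08). Gbp6 stood at 116 FPKM in the KO-labelled library and 56.0 FPKM in WT (1.04), and Iigp1 at 49.9 FPKM in the KO-labelled library and 23.1 FPKM in WT (1.08). Gbp4 had the largest difference of the family, with 29.9 FPKM in the library labelled KO and 9.68 FPKM in WT (1.53). Tgtp1, Gbp8 and Gbp11 were called at 9.29, 4.22 and 1.67 FPKM in the library labelled KO, against 2.57, 1.54 and 0.20 FPKM in WT. These are families of close copies, so how reads were split between members is uncertain.

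In the IFIT and OAS families, which bind foreign RNA, 1 of 13 was called (7.7%, against 2.22% of all genes). All 13 lay above 0, with a median of 0.36. Ifit1bl1 stood at 173 FPKM in the library labelled KO and 52.9 FPKM in WT (1.69). Oasl1, which restrains translation of Irf7 in mice, stood at 699.8 FPKM in the KO-labelled library and 370.0 FPKM in WT (0.92), short of the rule. Of 52 other interferon-stimulated genes 1 was called (1.9%, against 2.22% of all genes). This was Ifi205, a member of the DNA-sensing IFI200 family, at 545 FPKM in the library labelled KO and 271 FPKM in WT (1.01). Rsad2, the antiviral enzyme viperin, and its neighbour Cmpk2 came close, at 730.0 FPKM in the KO-labelled library and 375 FPKM in WT (0.96) and at 375 FPKM in the KO-labelled library and 198 FPKM in WT (0.92). Ifitm6 (10.4 FPKM in the KO-labelled library and 20.2 FPKM in WT, -0.89) and Ifitm2 (499.9 FPKM in the KO-labelled library and 903 FPKM in WT, -0.85) had the largest negative differences. The 19 genes of interferon regulatory factors, STAT proteins and their kinases had 0 calls and a median of 0.14. Irf4 had the largest difference, 1.98 FPKM in the library labelled KO and 0.80 FPKM in WT (0.73).

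Enzymes that share arginine as a substrate were called in both directions. Nos2, the inducible nitric oxide synthase (gene ID 18126, GRCm38 chromosome 11, 78920787 to 78960226), stood at 467 FPKM in the library labelled KO and 199.9 FPKM in WT (1.22). Arg1, the arginase that hydrolyses arginine to ornithine and urea (gene ID 11846, GRCm38 chromosome 10, 24915207 to 24927470), stood at 7.97 FPKM in the library labelled KO and 40.2 FPKM in WT (-2.20). The mitochondrial arginase gene Arg2 was uncalled in the other direction, at 17.7 FPKM in the KO-labelled library and 8.96 FPKM in WT (0.91). Ddah2, whose relatives break down methylated arginines that inhibit nitric oxide synthase, was called higher at a low level, with 3.86 FPKM in the KO-labelled library and 1.14 FPKM in WT (1.18). Of 14 genes on the list, these made 2 higher and 1 lower call (21.4%, against 2.22% of all genes), with a median of 0.35. Among uncalled members of polyamine metabolism, Sat1 stood at 152 FPKM in the library labelled KO and 97.7 FPKM in WT (0.64), and Srm at 8.96 FPKM in the KO-labelled library and 14.6 FPKM in WT (-0.64).

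Lysozymes, which cut bacterial cell walls, had the largest differences among named genes in either direction. Lyz2 (gene ID 17105, GRCm38 chromosome 10, 117277541 to 117282272) stood at 17.7, 35.96 and 54.5 FPKM at 0, 12 and 24 h in the libraries labelled KO, and at 5502, 3903 and 9015 FPKM in WT. Its neighbour Lyz1 (gene ID 17110, GRCm38 chromosome 10, 117287795 to 117292868) stood at 10.99, 10.35 and 17.7 FPKM in the libraries labelled KO, and at 569, 320.6 and 869.98 FPKM in WT. The differences at 12 h were -6.72 for Lyz2 and -4.82 for Lyz1. All 3 libraries labelled KO lay far below all 3 WT libraries, without and with LPS. The genes are close copies, with 92.0% of 1317 aligned transcript positions identical, so the split of reads between them is uncertain. Their windows before the start site, chr10:117282273-117282522 (minus strand) and chr10:117292869-117293118 (minus strand), were identical at 79.4% of 252 aligned positions. They are shown to compare the copies, and capitals mark bases that do not match in the alignment.
Lyz2: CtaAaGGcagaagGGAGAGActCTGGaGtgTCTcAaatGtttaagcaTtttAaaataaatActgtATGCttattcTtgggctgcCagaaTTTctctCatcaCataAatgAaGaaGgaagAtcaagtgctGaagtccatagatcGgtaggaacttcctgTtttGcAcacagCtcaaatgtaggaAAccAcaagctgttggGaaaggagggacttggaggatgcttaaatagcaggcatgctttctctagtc
Lyz1: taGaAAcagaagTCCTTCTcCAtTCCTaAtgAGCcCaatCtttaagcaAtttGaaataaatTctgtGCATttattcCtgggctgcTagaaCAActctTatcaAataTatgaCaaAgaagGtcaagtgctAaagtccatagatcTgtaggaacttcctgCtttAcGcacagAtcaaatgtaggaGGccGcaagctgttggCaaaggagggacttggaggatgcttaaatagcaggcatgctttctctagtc
As background, Lyz2 is a locus into which a Cre gene is often inserted for deletion in myeloid cells. The labels do not say how Setd2 was deleted, and the bearing of the Lyz2 locus on these values was not tested. In bulk RNA, fewer cells of a type and less RNA per cell cannot be told apart. Other macrophage genes differed far less than Lyz2. Differences at 0, 12 and 24 h were -0.04, -0.52 and -0.81 for Adgre1, and 0.04, -0.55 and -0.89 for Csf1r. For Itgam they were 0.46, -0.59 and -1.24. Of the 10 macrophage markers, Lyz2 among them, 7 lay below 0 at 12 h (70.0%, against 60.2% of all genes). The other 3 lay above 0, up to 0.28, and the median was -0.48.

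The other microbicidal genes differed much less. Of 18, 15 lay below 0 (83.3%, against 60.2% of all genes), with a median of -0.24. The rule called 1 higher, Hamp, and 2 lower, the lysozymes (16.7% called, against 2.22% of all genes). Hamp encodes hepcidin, the peptide hormone that shuts the iron exporter ferroportin. It stood at 11.7 FPKM in the library labelled KO and 1.62 FPKM in WT (2.28), from about 91 and 13 estimated reads. Saa3, an acute phase protein and among the most abundant transcripts, stood at 10221 FPKM in the library labelled KO and 17094 FPKM in WT (-0.74). Cybb, which encodes the catalytic part of the phagocyte oxidase, stood at 576 FPKM in the KO-labelled library and 796 FPKM in WT (-0.47), and Slpi, a secreted protease inhibitor, at 53.5 FPKM in the KO-labelled library and 81.2 FPKM in WT (-0.59). In iron handling, Hamp was the 1 call of 14 genes (7.1%, against 2.22% of all genes), whose median was -0.13. Tfrc, the transferrin receptor, stood at 4.73 FPKM in the library labelled KO and 9.68 FPKM in WT (-0.90), and Fth1, the heavy chain of the iron store ferritin, at 17244 FPKM in the KO-labelled library and 22197 FPKM in WT (-0.36).

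**Figure D3:**
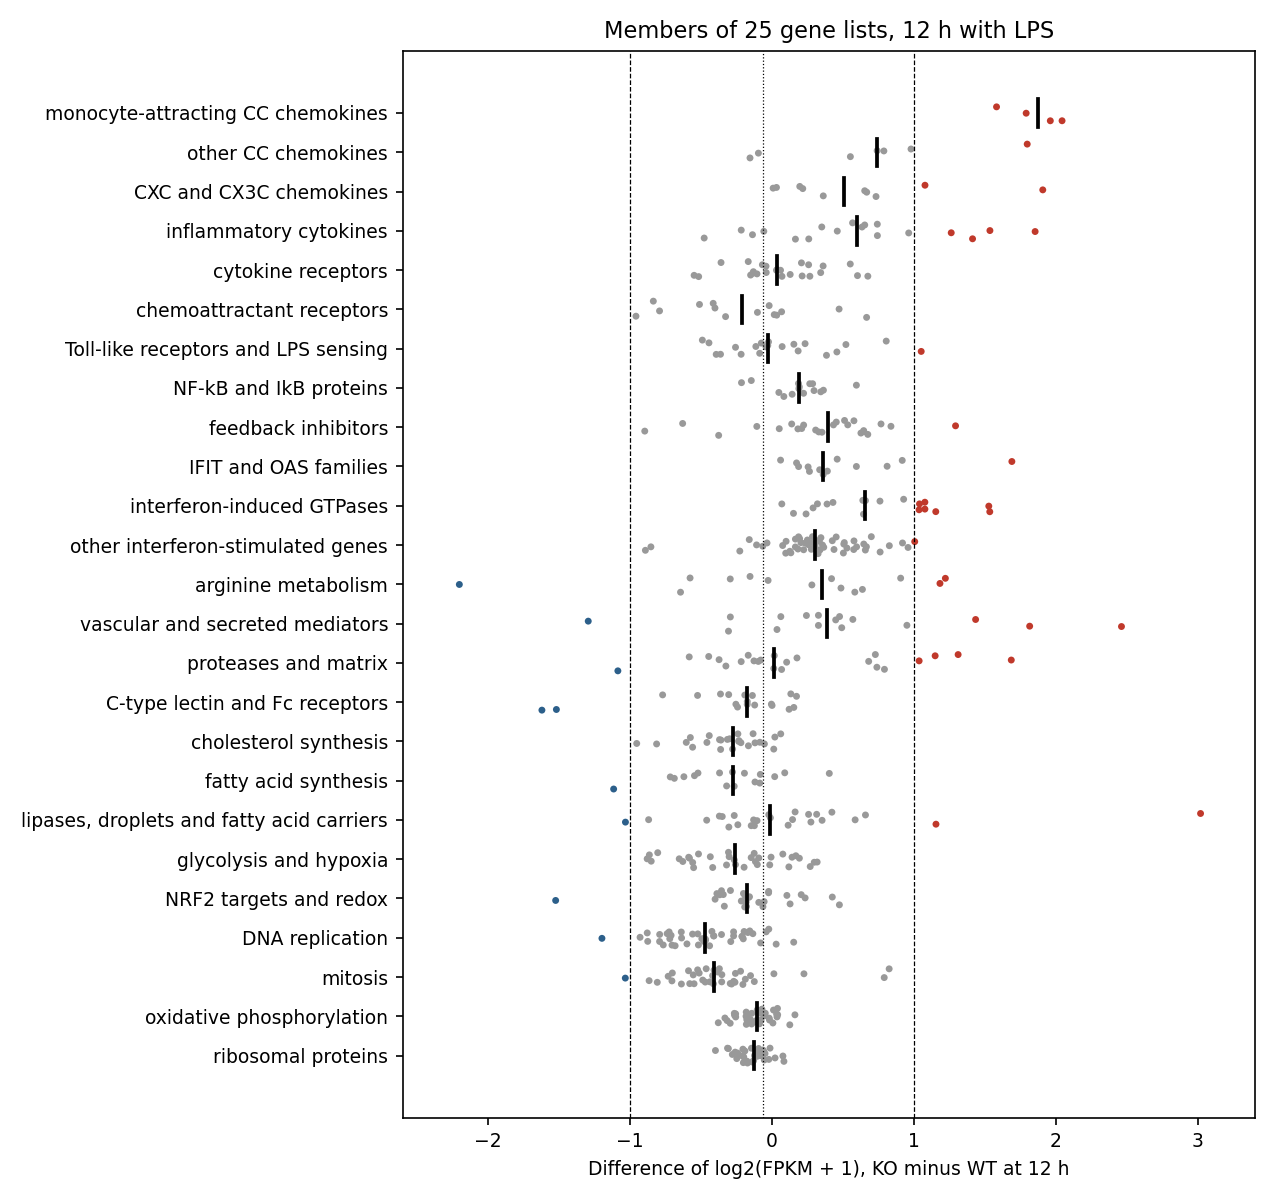
Difference of log2(FPKM + 1), KO minus WT at 12 h (horizontal axis), for the members of 25 gene lists that passed 1 FPKM (rows), 1 point a gene. Black bars are list medians, dashed lines the 2-fold rule at 1 and -1, and the dotted line the median of all genes (-0.06). The 4 monocyte-attracting chemokines all lie past the upper line, while replication and mitosis genes lie mostly below 0 and short of the lower line.

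Secreted mediators of vessels and tissue repair held several of the largest differences. Edn1 encodes endothelin 1, a peptide that constricts vessels (gene ID 13614, GRCm38 chromosome 13, 42301476 to 42307990). It stood at 16.5 FPKM in the library labelled KO and 2.17 FPKM in WT (2.46), and its ISRE match is printed above. Ptx3, the soluble pattern receptor pentraxin 3, stood at 4.70 FPKM in the KO-labelled library and 0.62 FPKM in WT (1.82). Inhba, which encodes the subunit of activin A, stood at 67.8 FPKM in the library labelled KO and 24.5 FPKM in WT (1.43). F13a1, the transglutaminase subunit of clotting factor XIII, was called lower, at 1.97 FPKM in the KO-labelled library and 6.28 FPKM in WT (-1.29). Together these made 3 higher and 1 lower call among 16 genes, with a median of 0.39.

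Proteases and their inhibitors were called in both directions, 4 higher and 1 lower among 23 genes. That was 21.7% called, against 2.22% of all genes, with a median of 0.02. Plau, the urokinase that activates plasmin, stood at 44.8 FPKM in the library labelled KO and 17.4 FPKM in WT (1.31). Serpinb2, an inhibitor of plasminogen activators, was the lower call, at 58.4 FPKM in the KO-labelled library and 125 FPKM in WT (-1.08). Mmp12, the macrophage elastase, stood at 168 FPKM in the library labelled KO and 81.5 FPKM in WT (1.04). Serpina3g stood at 18.0 FPKM in the KO-labelled library and 4.91 FPKM in WT (1.69), and its close copy Serpina3f, off the list, at 7.99 FPKM in the KO-labelled library and 1.81 FPKM in WT (1.68), with an uncertain split of reads. Mmp13, a collagenase, and Spp1, the matrix protein osteopontin, were abundant and uncalled, at 717 FPKM in the KO-labelled library and 433 FPKM in WT (0.73) and at 1761 FPKM in the KO-labelled library and 1016 FPKM in WT (0.79).

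Surface receptors with calls belonged to several families. Slamf1, a self-binding receptor of activated leukocytes, stood at 32.1 FPKM in the library labelled KO and 8.38 FPKM in WT (1.82). Icosl, the ligand of the T cell costimulator ICOS, stood at 13.2 FPKM in the KO-labelled library and 3.92 FPKM in WT (1.53). With Cd40 it made 2 higher calls among 19 genes of MHC and costimulation (10.5%, against 1.43% of all genes), with a median of 0.34. Axl, a receptor for dying cells, stood at 141 FPKM in the library labelled KO and 66.3 FPKM in WT (1.08). Gas6, which bridges AXL to dying cells, stood at 28.2 FPKM in the KO-labelled library and 13.9 FPKM in WT (0.97), just short of the rule. The complement gene C1qa was lower, at 73.5 FPKM in the KO-labelled library and 167 FPKM in WT (-1.17), and its partner C1qb was uncalled, at 523 FPKM in the KO-labelled library and 705 FPKM in WT (-0.43). The 21 efferocytosis and complement genes had a median of 0.05.

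In the CD300 and TREM families 2 of 12 genes were called (16.7%, against 2.22% of all genes), both higher, with a median of -0.23. Treml2 stood at 11.3 FPKM in the library labelled KO and 4.84 FPKM in WT (1.08), and Cd300lf, an inhibitory receptor for phosphatidylserine and ceramide, at 108 FPKM in the KO-labelled library and 53.5 FPKM in WT (1.003). Among C-type lectin and Fc receptor genes 2 of 19 were called (10.5%, against 2.22% of all genes), both lower, with a median of -0.17. These were Mcemp1, a membrane protein of mast cells and myeloid cells, at 4.33 FPKM in the KO-labelled library and 15.4 FPKM in WT (-1.62), and the inhibitory lectin gene Clec4a2, at 15.04 FPKM in the KO-labelled library and 44.9 FPKM in WT (-1.52). Tmem119, known as a marker of microglia, was lower too, at 4.97 FPKM in the library labelled KO and 16.4 FPKM in WT (-1.54).

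Lipid genes, which the series title names as a subject, were called at 12 h about as often as all genes, with 4 of 153 over 7 lists (2.6%, against 2.22%). Of these calls 3 fell on 1 list, that of lipases, droplets and fatty acid carriers. Lipg had the largest positive difference of the named genes. It encodes endothelial lipase, which hydrolyses phospholipids of lipoproteins (gene ID 16891). Lipg stood at 97.0 FPKM in the library labelled KO and 11.1 FPKM in WT (3.02), from about 7836 estimated reads in the library labelled KO. Lpl, lipoprotein lipase, which frees fatty acids from triglycerides, stood at 278 FPKM in the library labelled KO and 124 FPKM in WT (1.16). Mgll, which completes triglyceride breakdown by cutting monoglycerides, was lower at 1.72 FPKM in the KO-labelled library and 4.56 FPKM in WT (-1.03). Plin2, the coat protein of lipid droplets, stood at 684 FPKM in the KO-labelled library and 456 FPKM in WT (0.59), and Fabp4, a fatty acid carrier, at 19.97 FPKM in the KO-labelled library and 37.3 FPKM in WT (-0.87). Of the 26 genes on this list that passed, 2 were higher and 1 lower (11.5%), and the median of -0.02 became positive under other scalings.

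Genes that make sterols and fatty acids lay mostly below 0. Of 25 cholesterol synthesis genes 22 lay below 0 (88.0%, against 60.2% of all genes), with a median of -0.28 and 0 calls. Stard4, a sterol carrier, stood at 2.93 FPKM in the KO-labelled library and 5.90 FPKM in WT (-0.81). Sqle, the monooxygenase that opens the sterol branch, was at 15.01 FPKM in the KO-labelled library and 23.3 FPKM in WT (-0.60). Of 17 fatty acid synthesis genes 14 lay below 0 (82.4%), also with a median of -0.28. The rule called 1 of them (5.9%, against 2.22% of all genes). The 1 call was Scd2, a desaturase that makes monounsaturated fatty acids, at 2.99 FPKM in the library labelled KO and 7.64 FPKM in WT (-1.11). Elovl5, an elongase of polyunsaturated fatty acids, was at 7.90 FPKM in the KO-labelled library and 13.3 FPKM in WT (-0.69).

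Targets of LXR, the nuclear receptor that senses oxysterols, had 0 calls among 16 genes and a median of -0.15, with members on both sides. The cholesterol exporters split, with Abca1 at 22.4 FPKM in the library labelled KO and 38.2 FPKM in WT (-0.75), and Abcg1 at 11.5 FPKM in the KO-labelled library and 5.62 FPKM in WT (0.92). Nr1h3, the gene of LXR alpha itself, stood at 40.2 FPKM in the KO-labelled library and 70.7 FPKM in WT (-0.80). Ch25h, which makes 25-hydroxycholesterol and is induced by interferon, stood at 23.7 FPKM in the KO-labelled library and 12.0 FPKM in WT (0.93). Eicosanoid genes had 0 calls among 16, with Ptgs2, the inducible cyclooxygenase, at 72.2 FPKM in the library labelled KO and 42.5 FPKM in WT (0.75), and Pla2g7, the hydrolase of platelet-activating factor, at 156 FPKM in the KO-labelled library and 273 FPKM in WT (-0.80). Fatty acid oxidation (25 genes, median 0.07) and sphingolipids and phospholipids (28 genes, median 0.10) had 0 calls.

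Cell division genes lay mostly below 0, short of the rule. Of 83 genes of DNA replication and mitosis, 77 lay below 0, against 60.2% of all genes, and the median was -0.44. There were 2 calls, both lower (2.4%, near the 2.22% called among all genes). Mcm7, a subunit of the replicative helicase, stood at 4.81 FPKM in the library labelled KO and 12.3 FPKM in WT (-1.20), and Ncaph, a condensin subunit, at 1.85 FPKM in the KO-labelled library and 4.83 FPKM in WT (-1.03). Top2a, which untangles DNA, stood at 5.93 FPKM in the KO-labelled library and 11.6 FPKM in WT (-0.86), and Ccna2, cyclin A2, at 1.88 FPKM in the KO-labelled library and 4.04 FPKM in WT (-0.81). Pttg1 and Tpx2 went against the rest, at 57.0 FPKM in the KO-labelled library and 31.7 FPKM in WT (0.83) and at 10.9 FPKM in the KO-labelled library and 5.89 FPKM in WT (0.79). Levels were low in both libraries, since the summed FPKM of the replication list was 442 in the library labelled KO and 559 in WT at 12 h, against 1936 in the library labelled KO and 2305 in WT at 0 h.

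Glycolysis and hypoxia genes had 0 calls among 34, against 2.22% of all genes. Of them 26 lay below 0 (76.5%, against 60.2% of all genes), with a median of -0.26. Slc16a3, a lactate exporter, stood at 108 FPKM in the library labelled KO and 200.1 FPKM in WT (-0.88), and Tpi1, triosephosphate isomerase, at 257 FPKM in the KO-labelled library and 449 FPKM in WT (-0.80). In the list of NRF2 targets and redox genes Glrx was the 1 call of 27 (3.7%, against 2.22% of all genes), with a median of -0.18. Glrx encodes glutaredoxin 1, which removes glutathione from proteins, and stood at 219 FPKM in the library labelled KO and 632 FPKM in WT (-1.52). Gstm1, a glutathione transferase, stood on the other side at 191 FPKM in the KO-labelled library and 137 FPKM in WT (0.48). The TCA cycle (26 genes, median -0.08), oxidative phosphorylation (37 genes, -0.10), ribosomal proteins (33 genes, -0.13), lysosome (30 genes, 0.05) and the ATF4 and unfolded protein response list (22 genes, -0.14) had 0 calls. The 15 enzymes of H3K36 methylation that passed had 0 calls and a median of -0.06. The largest difference there was Whsc1, the gene of the H3K36 dimethylase NSD2, at 6.88 FPKM in the KO-labelled library and 10.3 FPKM in WT (-0.53).

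Several calls stood outside the lists. Lhx2, a LIM homeobox factor, stood at 6.22 FPKM in the library labelled KO and 1.36 FPKM in WT (1.61), and Slc1a2, a glutamate transporter, at 6.65 FPKM in the KO-labelled library and 1.53 FPKM in WT (1.60). Hirip3, a histone-binding protein, was lower at 2.08 FPKM in the KO-labelled library and 5.26 FPKM in WT (-1.02), and Dmpk, a kinase known from muscle, at 2.41 FPKM in the KO-labelled library and 6.74 FPKM in WT (-1.18). Gja1, connexin 43 of gap junctions, stood at 2.0 FPKM in the KO-labelled library and 5.84 FPKM in WT (-1.19). Rps27rt, an intronless copy of a ribosomal protein gene, is listed at 0 in the other libraries and at 11.7 FPKM in WT at 12 h, so its difference of -3.66 rests on 1 library and on reads that a copy can share. Hist2h2aa2 stood at 1.07 FPKM in the library labelled KO and is listed at 0 in WT, and it has near-identical copies too.

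Markers of other cell types were compared as summed FPKM. Neutrophil markers summed to 116 FPKM in the library labelled KO and 158 FPKM in WT. Of these 11 genes 6 passed and 1 was called (16.7%, against 2.22% of all genes). This was S100a8, a calcium-binding alarmin, at 24.96 FPKM in the KO-labelled library and 56.8 FPKM in WT (-1.16). Its partner S100a9 was at 10.7 FPKM in the KO-labelled library and 21.5 FPKM in WT (-0.94), and the granule gene Mpo at 0.68 FPKM in the KO-labelled library and 0.96 FPKM in WT. The receptor gene Cxcr2 went the other way, at 2.28 FPKM in the KO-labelled library and 1.21 FPKM in WT (0.57), so that 4 of the 6 lay below 0 and 2 above. The neutrophil gene Retnlg is listed at 0 in the library labelled KO and at 0.08 FPKM in WT. Monocyte markers summed to 64.4 FPKM in the KO-labelled library and 65.6 FPKM in WT, with F13a1 the 1 call of 5. Endothelial markers summed to 23.3 FPKM in the library labelled KO and 14.9 FPKM in WT, mostly from Kdr at 19.7 FPKM in the KO-labelled library and 10.95 FPKM in WT (0.79), while Cdh5 stood at 1.36 FPKM in the KO-labelled library and 0.78 FPKM in WT (0.41). Pecam1 went the other way, at 2.17 FPKM in the KO-labelled library and 3.17 FPKM in WT (-0.40). Osteoclast markers summed to 93.3 FPKM in the library labelled KO and 132 FPKM in WT. Ocstamp, a gene of osteoclast fusion, was called higher at 4.48 FPKM in the KO-labelled library and 0.83 FPKM in WT (1.58). Of the 5 that passed it was the 1 above 0. The other 4 lay below, Acp5 (-0.64), Mmp9 (-0.58), Ctsk (-0.25) and Dcstamp (-0.02). The part of these cell types in the calls above was not tested.

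The KO and WT pairs at 0 h and 24 h share no library with the 12 h pair, and both held more calls. At 0 h 488 of 11000 genes were called (4.44%), 342 higher (3.11%) and 146 lower (1.33%). At 24 h 479 of 10489 were called (4.57%), 256 higher (2.44%) and 223 lower (2.13%). Of the 152 genes higher at 12 h, 34 were also higher at 0 h, which is 22.4% of the 12 h calls and 9.9% of those at 0 h. With 24 h the overlap was 59 genes, 38.8% of the 12 h calls and 23.0% of those at 24 h. For the 84 lower genes the overlaps were 13 (15.5% and 8.9%) and 18 (21.4% and 8.1%). Across genes, Spearman's rho between the differences was 0.31 for 12 h with 0 h (10210 genes) and 0.28 for 12 h with 24 h (10166 genes), as a description, since the genes of 1 pair share their libraries. Opposite calls were made too. Of the 152 higher genes, 8 were lower at 0 h and 11 at 24 h, against 1.33% and 2.13% of all genes. Of the 84 lower genes, 10 were higher at 0 h and 5 at 24 h, against 3.11% and 2.44%. In all, 31 genes were called in opposite directions at 12 h and another time. None was a gene of the named kinds with 5 FPKM or more at 12 h. Hist2h2aa2, at 1.07 FPKM in the library labelled KO at 12 h, was called lower at 24 h (-1.72).

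**Figure D4:**
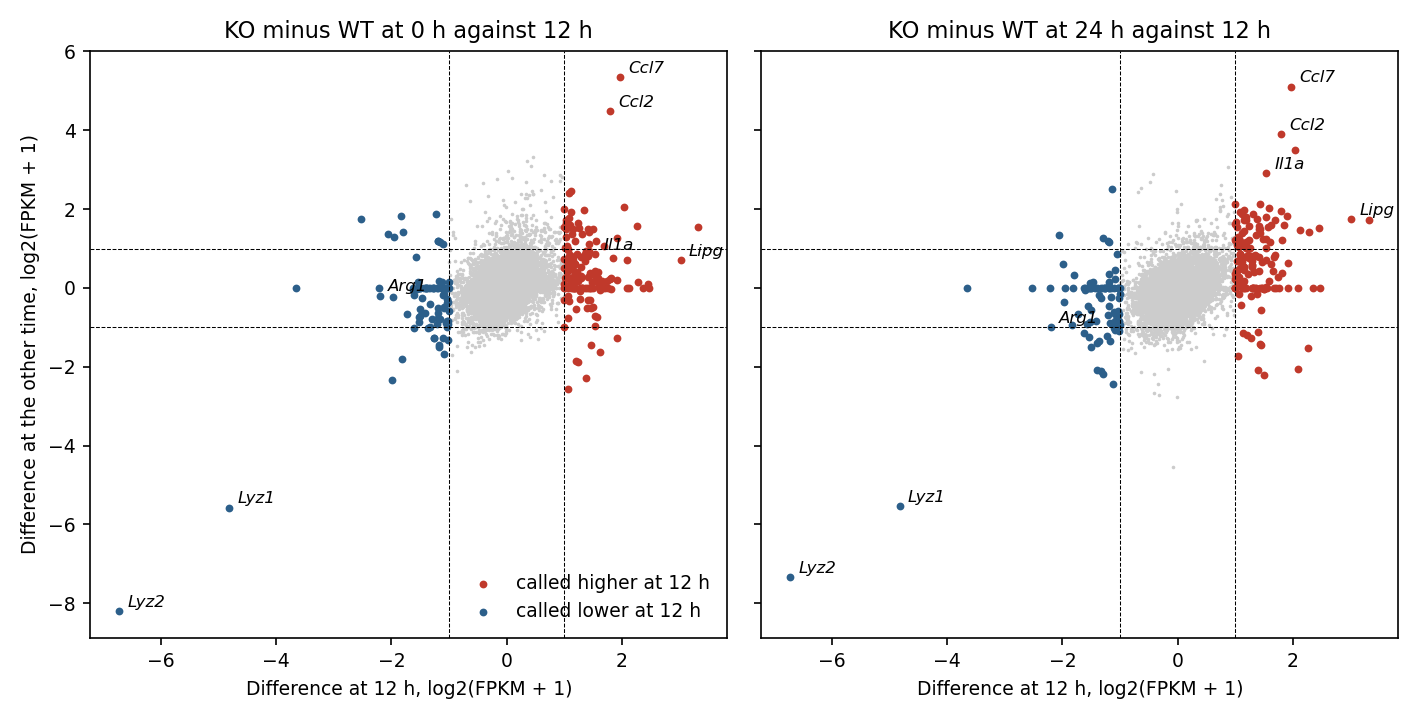
Difference of log2(FPKM + 1), KO minus WT, at 0 h (left, vertical axis) and at 24 h (right, vertical axis), against the difference at 12 h (horizontal axes), for genes that passed at 12 h. Red and blue points are genes called higher and lower at 12 h, and dashed lines mark 1 and -1. Ccl2 and Ccl7 lie higher at the other times than at 12 h, and Lyz1 and Lyz2 lie far below 0 at every time.

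Genes called at 12 h differed in their course over time, and 3 patterns are described here. Other genes had none of them: Axl, Gbp3 and C1qa were called at 0 h and 12 h and not at 24 h (differences of 0.83, 0.86 and -0.88), and Cd40 was called at 12 h alone with 0.82 at 24 h. In the first pattern, the call was made at every time, and for the chemokines Ccl2, Ccl7 and Cxcl10 the difference was smallest at 12 h. Ccl2 stood at 282, 1041 and 1638 FPKM at 0, 12 and 24 h in the libraries labelled KO, and at 11.7, 300.2 and 108 FPKM in WT, with differences of 4.48, 1.79 and 3.91. Ccl7 stood at 82.5, 360.3 and 832 FPKM in the libraries labelled KO, and at 1.06, 91.8 and 23.1 FPKM in WT, with differences of 5.34, 1.96 and 5.11. Both kept climbing in the libraries labelled KO, while in WT they peaked at 12 h. Cxcl10 had differences of 2.41, 1.08 and 1.92. In all, 16 genes were higher at all 3 times, among them Ccl12, Ifit1bl1, Plau, Csf1, Ly6a, Glipr2 and Adam33. Lower at all 3 times were 3, Lyz2, Lyz1 and Xlr3b. Of the 84 interferon genes that passed at 12 h, 57 were higher at 0 h, 9 at 12 h and 14 at 24 h. Among all genes that passed at each time it was 3.11%, 1.43% and 2.44%. The 84 genes had medians of 1.44, 0.35 and 0.46, and were chosen by their level in the 12 h libraries only.

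In the second pattern the gene was low in both genotypes before LPS and differed at 12 and 24 h. Lipg stood at 0.65, 97.0 and 5.24 FPKM in the libraries labelled KO, and at 0.01, 11.1 and 0.86 FPKM in WT, and so peaked at 12 h in both. Edn1 stood at 0.18, 16.5 and 3.20 FPKM in the libraries labelled KO, and at 0.11, 2.17 and 0.46 FPKM in WT. Il1a stood at 2.09, 467 and 200.5 FPKM in the libraries labelled KO, and at 0.71, 160.5 and 25.7 FPKM in WT. The difference of Il1a widened to 2.92 at 24 h, whereas those of Lipg and Edn1 were 1.75 and 1.52. Il6 (1.56), Il12b (1.59), Slamf1 (1.22), Cxcl11 (1.83) and Hamp (1.43) were also higher at 24 h. On the lower side, Arg1 stood at 0.32, 7.97 and 47.7 FPKM in the libraries labelled KO, and at 0.51, 40.2 and 96.5 FPKM in WT. Its difference was -0.19, -2.20 and -1.002, and it was still climbing at 24 h in both.

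In the third pattern the call was seen at 12 h with a difference under 0.5 at both other times. This held for 27 of the 152 higher and 24 of the 84 lower genes. No predicted gene or gene with few reads was left out of these counts, and the part of counting error in them was not tested. Among these, Icosl stood at 11.8, 13.2 and 3.82 FPKM in the libraries labelled KO, and at 9.44, 3.92 and 3.77 FPKM in WT. Its 0 h and 24 h differences were 0.30 and 0.01, and its level in WT was lower at 12 h than at 0 h. Ptx3 stood at 0.20, 4.70 and 0.50 FPKM in the libraries labelled KO, and at 0.22, 0.62 and 0.15 FPKM in WT. Fam26f, an interferon-induced membrane channel gene, stood at 2.24, 31.2 and 11.8 FPKM in the libraries labelled KO, and at 2.94, 12.3 and 13.7 FPKM in WT. Serpinb2 stood at 0.55, 58.4 and 58.0 FPKM in the libraries labelled KO, and at 0.71, 125 and 42.0 FPKM in WT. Nos2 and Glrx were also called at 12 h alone, with a difference above 0.5 in size at 0 h. Nos2 stood at 1.71, 467 and 237 FPKM in the libraries labelled KO, and at 0.50, 199.9 and 185 FPKM in WT, with differences of 0.85 at 0 h and 0.36 at 24 h. Glrx stood at 68.5, 219 and 324 FPKM in the libraries labelled KO, and at 114, 632 and 296 FPKM in WT, with differences of -0.73 at 0 h and 0.13 at 24 h. In WT its level peaked at 12 h, and in the libraries labelled KO it did not.

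Genes called at 12 h were also read for their change with LPS in libraries outside that pair, as 24 h minus 0 h within a genotype. In KO, 56 of the 152 genes higher at 12 h were at least 2-fold higher at 24 h (36.8%), against 7.67% of all genes that passed. In WT it was 46 (30.3%), against 8.00%. Of the 84 lower genes, 18 were higher in KO (21.4%) and 24 in WT (28.6%). Genes called lower at 24 h against 0 h were 25 of the 152 (16.4%) and 19 of the 84 (22.6%) in KO, against 20.6% of all, and 28 (18.4%) and 18 (21.4%) in WT, against 12.4%. By these shares, genes higher after 24 h of LPS were more frequent among both the higher and the lower calls of the 12 h comparison than among all genes. In WT, genes lower after 24 h were also more frequent among both sets of calls (18.4% and 21.4%, against 12.4%). In KO they were less frequent among the higher calls (16.4%, against 20.6%) and near that share among the lower ones (22.6%). The set of all genes was not matched to the calls for level. Of the calls, 51 higher and 45 lower genes had fewer than 20 estimated reads in both 12 h libraries. The part of low counts in these shares was not tested.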

How the data were processed

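RNA was sequenced on the BGISEQ-500 platform after TRIzol extraction, per the labels' protocols. FPKM values were computed by the authors with Bowtie2, RSEM and the build GRCm38, per the submitters' processing notes, and deposited with 2 decimals per the file headers; versions and settings are not given in the sources used here. The table had 17905 rows, of which 1 names no gene and was left out. Symbols turned to dates (25) were restored from gene IDs, and 2 cells that are not numbers (Cd36 and Cers5 in KO at 0 h) were read as missing. Coordinates came from the RefSeq table of GRCm38 and transcript lengths from GENCODE M21 (99.1% of genes that passed).

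Differences used a pseudocount of 1, which understates the change of low genes, and a minimum of 1 FPKM in either library. Replicates are absent, so nothing was tested. Depth was estimated from the spacing of low FPKM values, where 1 read is 1 step, with 50-nt reads assumed. The step scores were 0.541 to 0.564, against 0.067 to 0.098 with lengths shuffled. The fit was tested on simulated data. Named genes were the 15 highest and 15 lowest called genes with 5 FPKM or more, every called list member, up to 4 uncalled members a list, up to 10 each way called at all 3 times and up to 6 each way called at 12 h with under 0.5 at both other times. A few genes that the rule names are not reported here. Rare names outside that rule are marked as such or stand at the edge of the threshold or among cell markers. The members, the 50 gene lists, the 14 marker lists and the rules were chosen with earlier results of these data known. Alternatives were pseudocounts of 0.1 and 5, other minimums, median-of-ratios and trimmed-mean scaling, a lowess fit over transcript length (span 0.3), 1.5-fold and 3-fold rules and, chosen after seeing the data, promoter motifs longer by 1 base. Python 3.11.15, numpy 2.4.6, pandas 2.3.3, scipy 1.17.1, statsmodels 0.14.6 and matplotlib 3.10.9 were used.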

Additional observations from a re-analysis of the deposited data

How the results depend on the processing

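Counts of calls depend on how low values are treated. The main counts were 152 higher and 84 lower. A pseudocount of 0.1 gave 261 and 169, and one of 5 gave 40 and 14. A minimum of 5 FPKM gave 80 and 33, a pair mean of 1 FPKM 109 and 52, a 1.5-fold rule 485 and 414 and a 3-fold rule 31 and 18. Of the called genes, 64.4% were higher; with a pseudocount of 5 it was 74.1%, and with the 1.5-fold rule 53.9%. Scaling moved little: median-of-ratios factors gave 171 and 76 and trimmed-mean factors 165 and 74, with shifts of 0.06 and 0.05 on the log2 scale. With the trend over transcript length removed (Spearman's rho 0.175 before and -0.012 after, over 5221 genes), 162 genes were higher and 67 lower, of which 150 and 66 were called in the main comparison. No minimum gave 152 and 84.

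No named call changed direction under any of these settings. With a pseudocount of 5, 31 of 71 named calls fell short of the rule, among them Csf1 (0.95), Cd300lf (0.95), Ptx3 (0.79), Scd2 (-0.66) and Mcm7 (-0.82). Hirip3 lost its call under both scalings (-0.99), Mgll and Ncaph under trimmed-mean scaling (-0.999 each), and S100a8 without the length trend (-0.99). Medians of 6 lists near 0 changed sign with the setting: Toll-like receptors, lipases and droplets, monocyte markers, proteasome, reference genes and scavenger receptors. No paired analysis was possible because the 12 h comparison has 1 library of each genotype, and no replicate could be left out; a fit of genotype and time over all 6 libraries, which asks about the mean of 3 times, was not run. Depth limits genes at a few FPKM, and a difference of cultures or batches and one of genotype cannot be told apart.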
